A study of Mus musculus with 16 samples.

Results

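The BCL-2 family genes that decide between survival and death of a neutrophil were examined in 10 members. They were taken by their role, and all 10 were found among the 49315 genes of the count files. The survival members were Mcl1, Bcl2a1a, Bcl2a1b, Bcl2a1d, Bcl2l1 and Bcl2 (6 genes), and the death members were Bcl2l11, Bax, Bak1 and Bid (4 genes). RNA came from blood and lung neutrophils, gated on Ly6G, CD11b and CD45.2, of WT mice and of αD KO mice, which are labelled as lacking integrin αD (CD11d, the product of Itgad). The mice were male and 8 to 12 weeks old, and each strain was sampled untreated (0h) and 12 hours after cecal ligation and puncture (CLP), an operation that causes polymicrobial abdominal sepsis. The knockout is carried by the whole animal, so the other cells of the αD KO mice carried it too. Each of the 8 groups has 3 count files from 2 samples, here libraries 1a and 1b (both listed under sample 1) and library 2.

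BCL-2 proteins act at the outer membrane of the mitochondria. Survival proteins of the family hold back the pore-forming proteins BAX and BAK, and BH3-only proteins such as BIM (the product of Bcl2l11) and BID take off that hold, after which cytochrome c is released and caspases are activated. A neutrophil lives a short time and depends on the unstable protein MCL1, A1 proteins (from the Bcl2a1 genes) are induced by inflammatory signals, and neutrophil death is known to be delayed in sepsis.

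The 3 Bcl2a1 genes are near copies on chromosome 9, which bears on how their reads could be told apart. Their coding sequences (516 bases each, GENCODE on GRCm38) differed at 12 positions among the copies, and pairs were 97.9% to 98.8% identical. Of all stretches of 150 coding bases, 45.0% in Bcl2a1a, 18.5% in Bcl2a1b and 45.0% in Bcl2a1d also occurred in another copy, and reads that map to several places were not counted. The first 120 coding bases are shown because 7 of the 12 differing positions lie there, in capitals, at chr9:88957051-88957170 on the plus strand, chr9:89199360-89199479 on the plus strand and chr9:88731600-88731719 on the minus strand.
Bcl2a1a: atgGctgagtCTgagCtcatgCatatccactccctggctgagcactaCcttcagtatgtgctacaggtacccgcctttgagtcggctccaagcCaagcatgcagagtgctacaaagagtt
Bcl2a1b: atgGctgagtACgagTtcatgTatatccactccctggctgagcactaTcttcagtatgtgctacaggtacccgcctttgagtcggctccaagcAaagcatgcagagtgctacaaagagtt
Bcl2a1d: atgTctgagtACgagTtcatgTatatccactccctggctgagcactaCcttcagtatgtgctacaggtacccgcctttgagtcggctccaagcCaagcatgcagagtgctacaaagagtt
Of the exon bases of Bcl2a1b, 49.1% also belong to exons of Gm29094 on the same strand. Bax shared 12.2% of its exon bases with Gm45808 on the same strand. On the opposite strand, Bid shared 17.7% with Bcl2l13, Bak1 25.5% with Ggnbp1 and Bcl2 6.09% with D630008O14Rik, and the strand setting of the counting is not given in the sources used here. The levels of these 5 members and of the Bcl2a1 copies are therefore uncertain. The reads were paired, 150 bases each, so these shares of bases do not give the share of counts affected.

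The copies also share the sequence before their starts, shown because their levels moved together (RefSeq windows, GRCm38). Over the aligned stretch, Bcl2a1a (chr9:88956714-88956855, plus strand) and Bcl2a1b (chr9:89199023-89199164, plus strand) were identical at 142 of 142 bases. Bcl2a1d (chr9:88731915-88732050, minus strand) matched either of them at 135 of 142 aligned bases, and capitals mark the bases without a match in the aligned copy.
Bcl2a1a and Bcl2a1b: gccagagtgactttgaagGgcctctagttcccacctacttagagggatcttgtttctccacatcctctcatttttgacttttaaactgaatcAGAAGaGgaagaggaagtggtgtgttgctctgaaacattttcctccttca
Bcl2a1d: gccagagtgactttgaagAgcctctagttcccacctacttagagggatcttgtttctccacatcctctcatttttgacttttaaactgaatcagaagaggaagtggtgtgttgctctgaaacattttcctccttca
Log2(CPM + 1) of Bcl2a1a and Bcl2a1b correlated with r = 0.947 over the 24 libraries, that of Bcl2a1b and Bcl2a1d with r = 0.921, and that of Bcl2a1a and Bcl2a1d with r = 0.859. These are descriptions, since the libraries share groups and kits and the copies share sequence.

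The bases before the start are shown for the called members Bcl2l1 (chr2:152831729-152831928, minus strand) and Bid (chr6:120916854-120917053, minus strand), and for Bcl2l11, whose level varied most in lung (chr2:128125788-128126037, plus strand). All 10 members had RefSeq windows, 13 in all, running from 250 bases before a start to 50 after it. Both strands were searched for the STAT motif TTCNNNGAA, the FOXO motif TGTTTAC and the NF-kB motif. The background was 32851 windows of genes, with a chromosome that holds no member left out. Among them 8.3% held the STAT, 3.65% the FOXO and 8.46% the NF-kB motif, and 2 of the members' 13 windows held a motif. Those were an NF-kB match in another of the Bcl2l1 windows (GGGGGTCTCC) and a FOXO match in Bcl2l11. The Bcl2l1 window with the match begins inside a Bcl2l1 exon. The FOXO match is in capitals here as it reads on the strand shown.
Bcl2l1: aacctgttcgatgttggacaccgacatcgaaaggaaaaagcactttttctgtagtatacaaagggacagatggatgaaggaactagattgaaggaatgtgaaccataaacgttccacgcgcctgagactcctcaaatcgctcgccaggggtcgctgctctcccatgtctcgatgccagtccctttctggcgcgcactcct
Bid: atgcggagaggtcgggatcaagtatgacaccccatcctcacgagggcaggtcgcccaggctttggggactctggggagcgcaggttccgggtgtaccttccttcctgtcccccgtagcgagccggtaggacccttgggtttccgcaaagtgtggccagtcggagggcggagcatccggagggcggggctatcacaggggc
Bcl2l11: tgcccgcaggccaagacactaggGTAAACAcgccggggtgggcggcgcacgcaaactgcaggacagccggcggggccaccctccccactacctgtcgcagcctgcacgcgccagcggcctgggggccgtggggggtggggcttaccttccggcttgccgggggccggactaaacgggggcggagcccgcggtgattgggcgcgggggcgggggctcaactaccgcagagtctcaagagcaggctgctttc

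Library totals ranged from 5753476 to 29984954 counts. Values are CPM (counts scaled to a common library size, after TMM scaling over the 24 libraries) unless given per kb of gene length, which is used wherever genes are compared with each other. Itgad itself went against the genotype labels: it ranged from 0.0522 to 4.08 CPM in the libraries labelled WT and from 12.6 to 96.1 CPM in those labelled αD KO. A count per gene does not tell an intact from a targeted transcript, and the groups are named by their labels throughout. Neutrophil markers (9 genes such as S100a8 and Ly6g) summed to between 37203 and 191207 CPM in each library, and their shift with CLP is given with the other markers. On 1338 genes other than the members that changed in WT lung with CLP, a scale on which the WT lung means lie at 0 for 0h and 1 for 12 hours placed library 2 of αD KO lung 0h at 1.02. It placed libraries 1a and 2 of αD KO lung 12 hours at 0.085 and 0.185, and the other 3 αD KO lung libraries at 0.08, 0.148 and 0.858. Library 2 of αD KO lung 0h and libraries 1a and 2 of αD KO lung 12 hours stood apart from their labels. The main results on αD KO lung are also given without these 3.

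Mcl1 was by far the most abundant member and BAK1's gene among the least. Per kb, the median over the 24 libraries was 469.6 CPM per kb for Mcl1, 39.1 for Bid, 22.0 for Bax, 21.3 for Bcl2a1b, 14.4 for Bcl2a1a, 10.2 for Bcl2l1, 10.1 for Bcl2a1d and 7.84 for Bcl2l11. Bak1 and Bcl2 had medians of 0.425 and 0.333 CPM per kb. Their counts went down to 7 reads for Bak1 and 11 reads for Bcl2 in a library, so small differences in these genes were not detectable at this depth. Within a member, neighbouring groups in the order of mean levels overlapped in range for all 10 members, and only groups farther apart in the order were separate.

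**Figure D1:**
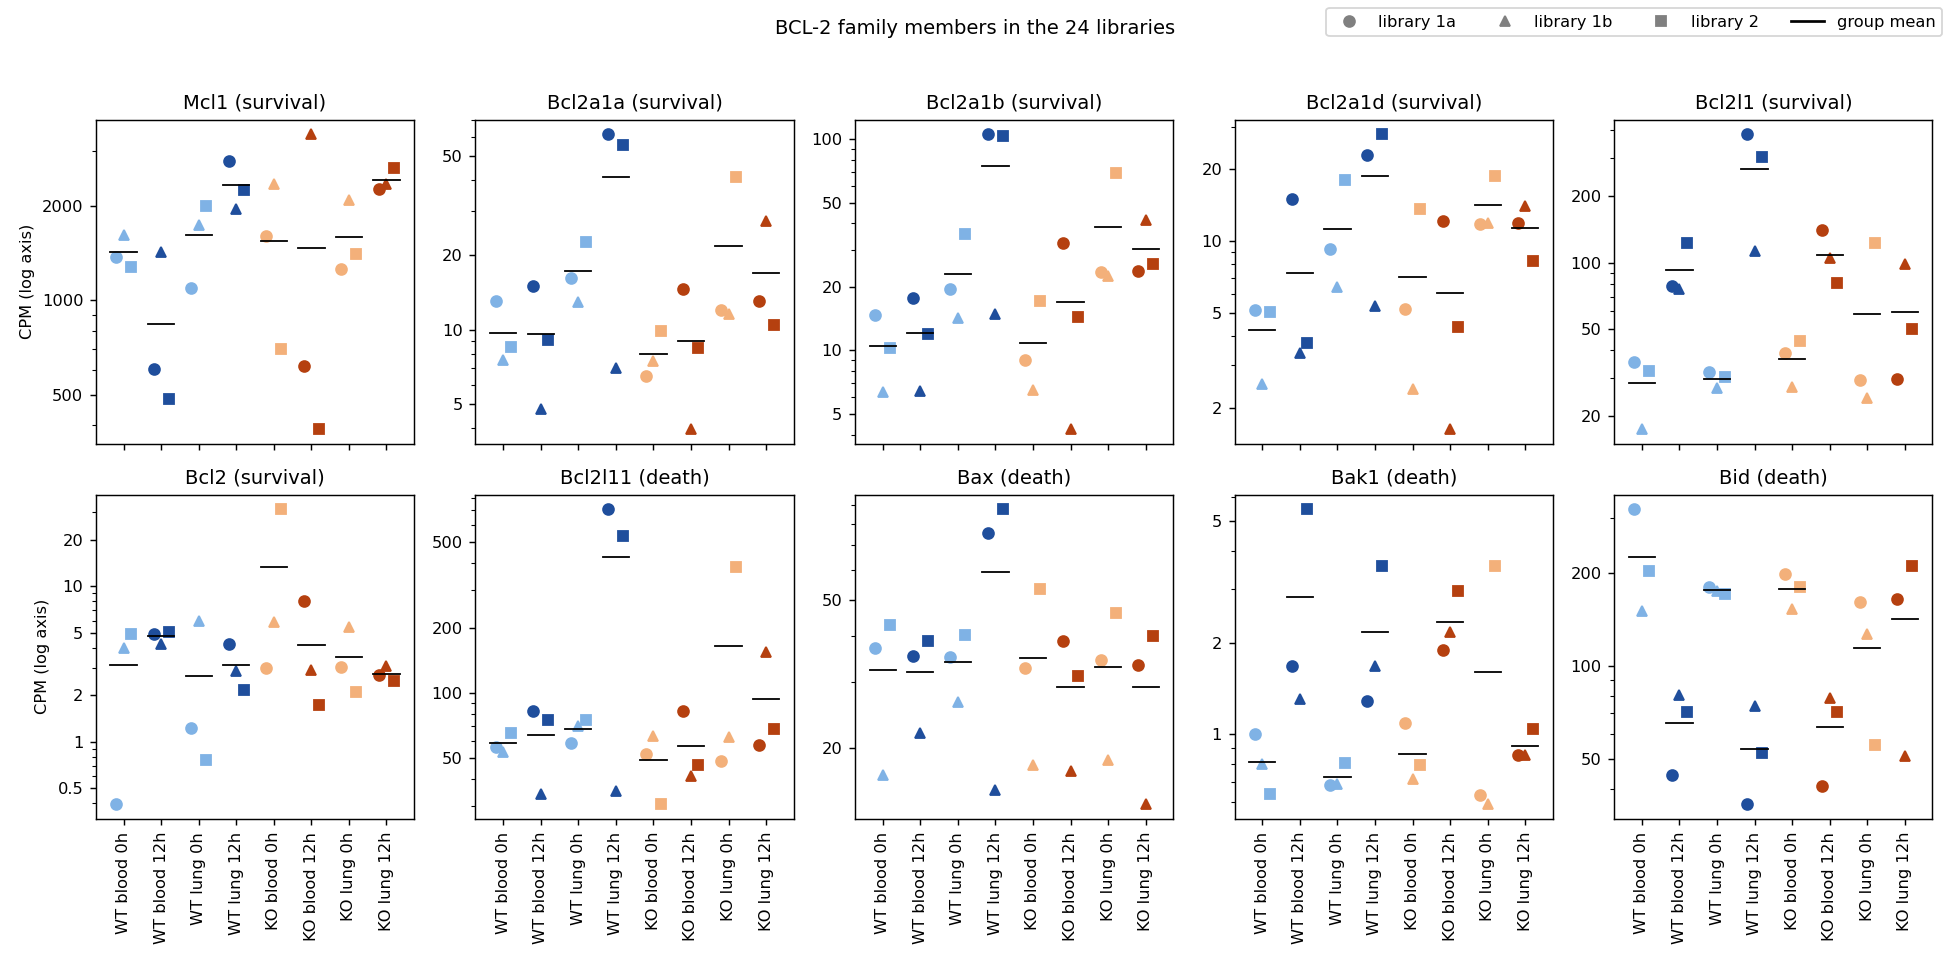
CPM on a log axis (vertical) of each member in the 24 libraries, by group (horizontal), with a symbol for each library and a line for the group mean. Bcl2l1 was higher and Bid lower at 12 hours in all libraries of WT blood, WT lung and αD KO blood, while αD KO lung mixed high and low libraries at both times.

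The first question was how the members changed 12 hours after CLP. In WT blood, WT lung and αD KO blood, the same pair of members passed the test: Bcl2l1, whose long product BCL-XL guards the mitochondria, rose, and Bid, whose product carries death receptor signals to the mitochondria, fell. A member was called when the quasi-likelihood F test of edgeR gave a Benjamini-Hochberg adjusted p under 0.05 over all genes tested and an absolute log2 fold change over 1.

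In WT blood, Bcl2l1 was at 35.2, 17.4 and 32.0 CPM at 0h (libraries 1a, 1b and 2) and at 78.0, 76.0 and 123 CPM at 12 hours. All 12-hour libraries lay above all 0h libraries, with a log2 fold change of 1.65 ± 0.37 (SE, adjusted p = 0.0257, edgeR). Bid was at 321, 151 and 202 CPM at 0h and at 44.2, 80.2 and 71.0 CPM at 12 hours. Again the groups did not overlap, and Bid fell by 1.83 ± 0.41 on the log2 scale (adjusted p = 0.0259, edgeR). Thus 2 of 10 members were called, against 13.5% of the 14625 genes tested, of which 7.75% were called higher and 5.75% lower. The 1975 genes called in all became 2 without library 2 of the 12-hour group, 19 without its library 1a, 46 without library 2 of the 0h group, 150 without its library 1a and 2804 without its library 1b.

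WT lung showed the highest Bcl2l1 of all groups. It was at 31.8, 26.8 and 30.2 CPM at 0h and at 383, 113 and 302 CPM at 12 hours, a log2 fold change of 3.14 ± 0.475 (adjusted p = 0.0107, edgeR). Bid went from 180.3, 174 and 171 CPM to 35.5, 73.9 and 52.1 CPM, and fell by 1.69 ± 0.37 on the log2 scale (adjusted p = 0.03, edgeR). Neither gene's ranges overlapped between the times. The called members were again 2 of 10, against 9.02% of 14859 genes tested, 5.24% higher and 3.78% lower.

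In αD KO blood, Bcl2l1 went from 38.7, 27.2 and 43.8 CPM to 141, 105 and 80.7 CPM, with a log2 fold change of 1.53 ± 0.31 (adjusted p = 0.0249, edgeR). Bid went from 197, 152 and 180.1 CPM to 40.9, 78.4 and 70.6 CPM, and fell by 1.53 ± 0.31 on the log2 scale (adjusted p = 0.0248, edgeR). The groups were apart for both genes. Here 2 of 10 members were called, against 8.75% of 14156 genes, 3.75% higher and 4.99% lower. Adding libraries 1a and 1b together before testing left 1 member called, Bid, and the call of Bcl2l1 was lost. The 1238 genes called in all became 74 and 571 without libraries 1a and 2 of the 0h group, 682 without its library 1b, 260 and 167 without libraries 1a and 2 of the 12-hour group, and 635 with the files of sample 1 summed.

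These 6 changes kept their direction in all 72 recalculations under other settings, but 37 of the 72 were still called. With all 8 groups in the fit, the adjusted p in WT blood was 0.104 for Bcl2l1 and 0.0547 for Bid, in αD KO blood 0.168 and 0.169, and in WT lung 0.0436 and 0.0676. Leaving out 1 library at a time raised the adjusted p to as much as 0.406 in WT blood, 0.264 in WT lung and 0.148 in αD KO blood.

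In αD KO lung, no member was called, and neither was any of the 17939 genes tested (0.0% by edgeR, with 72 genes at an unadjusted p under 0.05). Bcl2l1 was at 29.1, 24.2 and 122 CPM at 0h and at 29.5, 98.9 and 49.8 CPM at 12 hours. Bid was at 160.5, 127 and 55.3 CPM at 0h and at 164, 51.0 and 209.6 CPM at 12 hours. The high Bcl2l1 and low Bid at 0h belonged to library 2, and the low Bcl2l1 and high Bid at 12 hours to libraries 1a and 2, the same libraries that stood apart on the other genes. Without these 3 libraries, 2 remained at 0h and 1 at 12 hours, which is assumed to vary like the others. The log2 fold change was then 1.76 ± 0.65 for Bcl2l1 (adjusted p = 0.222, edgeR) and -1.63 ± 0.75 for Bid (adjusted p = 0.534, edgeR). No member was called in that fit, while 326 of its 23183 genes were. Since the libraries were set aside for their expression, these values are a description.

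**Figure D2:**
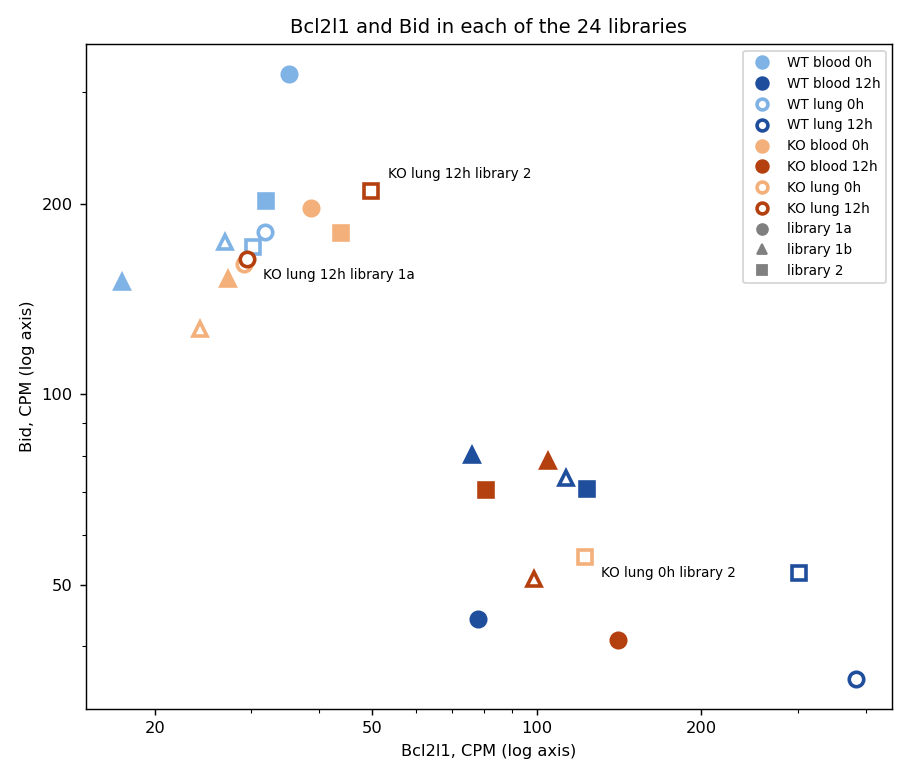
Bid CPM (vertical, log axis) against Bcl2l1 CPM (horizontal, log axis) in the 24 libraries, by group (colour, filled for blood and open for lung) and library (symbol). The libraries form an upper left set of high Bid and a lower right set of high Bcl2l1, and the 3 labelled αD KO lung libraries lie with the set of the other time.

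Per kb, the ratio of Bcl2l1 to Bid, chosen after the values were seen, was between 0.0849 and 0.188 in the 11 libraries at 0h other than library 2 of αD KO lung, where it was 1.71. At 12 hours it was between 0.733 and 8.35 in 10 libraries, and 0.139 and 0.184 in libraries 1a and 2 of αD KO lung.

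The rise of Bcl2l1 in lung did not pass as different from that in blood. In WT, the difference between the changes in lung and blood was 1.40 ± 0.65 on the log2 scale for Bcl2l1 and 0.03 ± 0.50 for Bid, with adjusted p = 0.876 and 0.989 (edgeR, interaction). No member was called in this interaction, and none of its 23497 genes was (0.0%; 1290 at an unadjusted p under 0.05 by edgeR).

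Among the other survival members, none passed the test with time. Mcl1 in WT blood was at 1374, 1612 and 1279.6 CPM at 0h and at 602, 1427 and 485 CPM at 12 hours, with overlapping groups and a log2 fold change of -0.79 ± 0.49. In αD KO blood it was at 1598, 2353 and 698 CPM at 0h and at 619, 3385 and 388 CPM at 12 hours. Library 1b held the highest Mcl1 of its group in both blood groups at 12 hours. In lung, Mcl1 was at 1099, 1736 and 2003 CPM in WT at 0h and at 2781, 1955 and 2249 CPM at 12 hours, and the ranges overlapped. In αD KO lung it was at 1263, 2089.6 and 1409 CPM at 0h and at 2263, 2343 and 2636 CPM at 12 hours, without overlap, but its log2 fold change of 0.64 ± 0.41 did not pass the test and was 0.39 ± 0.79 without the libraries that stood apart.

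The A1 genes were high in 2 of the 3 libraries of WT lung at 12 hours. Bcl2a1b was at 19.4, 14.2 and 35.6 CPM in WT lung at 0h and at 105, 14.9 and 103 CPM at 12 hours, with a log2 fold change of 1.65 ± 0.67. Bcl2a1a was at 16.1, 12.9 and 22.6 CPM at 0h and at 61.4, 6.99 and 55.7 CPM at 12 hours. Bcl2a1d was at 9.22, 6.37 and 18.0 CPM and at 22.8, 5.31 and 27.9 CPM. In all 3 genes library 1b was the low one at 12 hours and the groups overlapped. In blood, the A1 genes stayed between 1.62 and 32.3 CPM, and their log2 fold changes with time were between -0.24 and 0.71.

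Bcl2, a survival gene better known from lymphocytes, was at 0.394 to 8.01 CPM in 23 libraries and at 31.4 CPM in library 2 of αD KO blood 0h. In that library B cell markers (6 genes) summed to 1226 CPM, and T and NK cell markers (6 genes) to 139.7 CPM, against 7.18 to 22.4 CPM in all others. Monocyte and macrophage markers summed to 1301 CPM, platelet markers to 624 CPM and erythroid markers to 8815 CPM there, and all 5 sums were the highest of the 24 libraries. Their part in the Bcl2 level was not tested.

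Among the death members, Bcl2l11 had the widest spread in lung. It was at 58.5, 70.6 and 75.3 CPM in WT lung at 0h and at 708, 35.3 and 533 CPM at 12 hours. At 12 hours library 1b lay below all 0h libraries and the other libraries far above them, and the log2 fold change of 2.61 ± 0.86 did not pass the test (adjusted p = 0.0947, edgeR). The Wald test of DESeq2 called it (adjusted p = 0.00672), and edgeR did without library 1b of WT lung 12 hours (log2 fold change 3.03 ± 0.27, adjusted p = 0.000568). So did edgeR without a filter on low counts (1331 of 42259 genes called) and with the files of sample 1 summed (2337 of 19014). Bcl2l11 was thus called in 4 of 12 recalculations. In αD KO lung it was at 48.3, 62.7 and 382 CPM at 0h and at 57.4, 155 and 68.1 CPM at 12 hours, with the high 0h value in the library that stood apart and the high 12-hour value in library 1b, which did not. Its log2 fold change there was -0.81 ± 0.85 with these libraries and 1.37 ± 0.66 without them, neither of which passed the test. In blood it stayed between 30.4 and 82.6 CPM in all 12 libraries.

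Without library 1b of WT lung 12 hours, 6 members instead of 2 were called in WT lung with time, and the share of all genes called was 25.3% instead of 9.02% (3941 genes instead of 1340). Leaving out another library lowered the count of all genes, to 769 without library 1b of WT lung 0h, 27 without library 2 of the 12-hour group, and 0 without its library 1a or without libraries 1a or 2 of WT lung 0h (2515, 2171 and 2180 genes at an unadjusted p under 0.05, edgeR), with 1 member called in the first of these fits and 0 in the others. The 6 members called without library 1b of WT lung 12 hours were Bcl2l1, Bcl2l11, Bcl2a1a, Bcl2a1b and Bax, all higher, and Bid, lower. Library 1b lay at 0.671 on the scale of the other genes, against 1.21 and 1.06 for libraries 1a and 2.

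Bax, which forms the pore, was at 35.1, 26.5 and 40.3 CPM in WT lung at 0h and at 75.7, 15.5 and 87.5 CPM at 12 hours. In the other 3 time comparisons its log2 fold changes were between -0.29 and -0.08. Bak1, its partner, was separate between the times in WT blood (0.639 to 1.00 against 1.31 to 5.47 CPM), WT lung (0.681 to 0.806 against 1.28 to 3.55 CPM) and αD KO blood (0.714 to 1.09 against 1.89 to 2.95 CPM). Its log2 fold changes of 1.74 ± 0.78, 1.56 ± 0.64 and 1.37 ± 0.64 did not pass the test (adjusted p = 0.19, 0.165 and 0.206, edgeR).

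**Figure D3:**
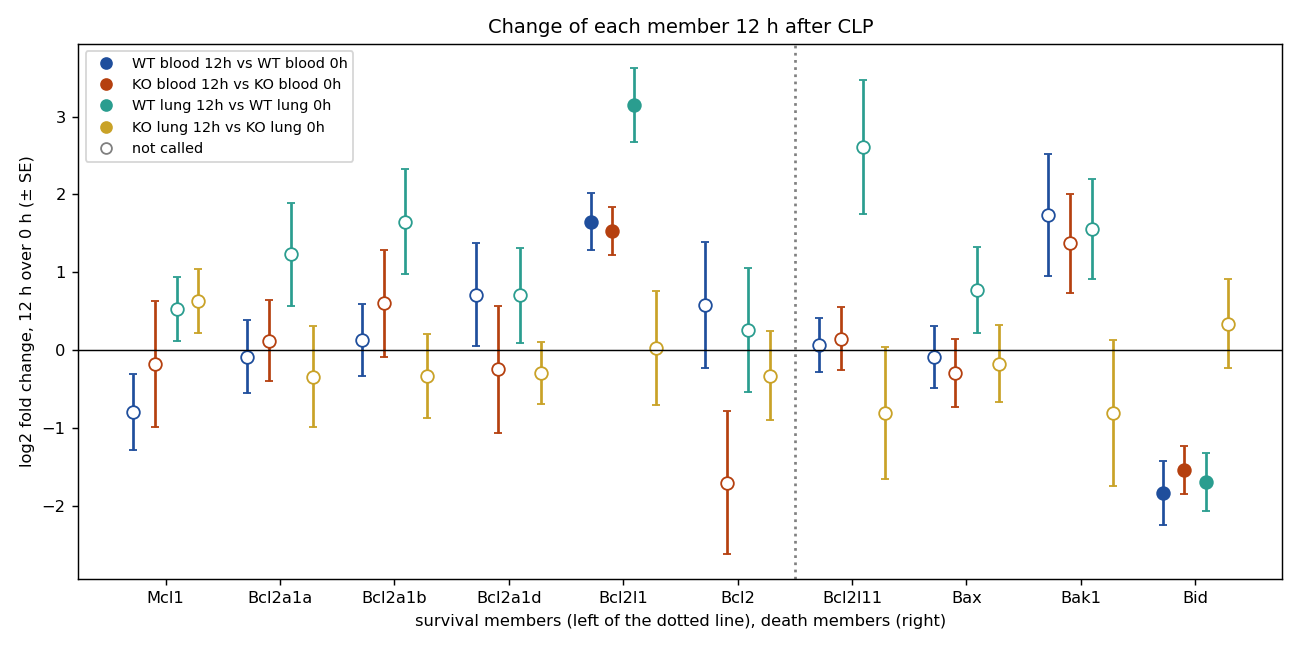
Log2 fold change (12 hours over 0h) with its SE (vertical) for each member (horizontal) in the 4 time comparisons (colours), filled where called. Bcl2l1 and Bid are the called members, at 1.53 to 3.14 and -1.83 to -1.53, in 3 of the 4 comparisons.

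The next question was whether the members differed between labelled genotypes, since the study asks how αD bears on neutrophil death. No member was called in any of the 4 comparisons. The background was 0.0115% of 17356 genes in blood at 0h (2 genes), and 0.0% in blood at 12 hours, lung at 0h and lung at 12 hours (505, 340 and 1390 genes at an unadjusted p under 0.05 by edgeR). DESeq2 called 5, 10, 7 and 142 genes in blood at 0h, blood at 12 hours, lung at 0h and lung at 12 hours, and no member among them. Without library 1b of WT lung 12 hours, edgeR called 209 of 18849 genes in lung at 12 hours (1.11%), with Bcl2l11 among them, lower in αD KO. In blood, the members' log2 fold changes between αD KO and WT ranged from -0.31 to 2.08 at 0h and from -0.20 to 0.88 at 12 hours. Bcl2l1 differed by 0.40 ± 0.29 at 0h and 0.30 ± 0.31 at 12 hours, and Bid by -0.31 ± 0.29 and 0.01 ± 0.36, all within the spread between libraries. The change of Bcl2l1 with CLP in αD KO blood differed from that in WT blood by 0.02 ± 0.64 and that of Bid by 0.44 ± 0.63 (edgeR interaction, adjusted p = 1.0 for both; 0.0% of 19792 genes called and 232 at an unadjusted p under 0.05). These p-values do not show that the strains responded alike.

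In lung at 12 hours, Bcl2l1 was at 383, 113 and 302 CPM in WT and at 29.5, 98.9 and 49.8 CPM in αD KO, without overlap. The log2 fold change was -2.10 ± 0.61 (unadjusted p = 0.00902, adjusted p = 0.598, edgeR), and without the αD KO libraries that stood apart -1.48 ± 0.96 (adjusted p = 1.0, edgeR, 1 library against 3). The genotype by time interaction of Bcl2l1 in lung was -3.14 ± 0.93 (adjusted p = 0.41, edgeR), and DESeq2 called it (adjusted p = 0.0469), with 332 genes called in all. That of Bid was 2.15 ± 0.76 and that of Bcl2l11 -3.46 ± 1.34 (adjusted p = 0.41 and 0.411, edgeR; 0.0% of 23211 genes called and 2432 at an unadjusted p under 0.05). Without the 3 libraries the interactions were -1.30 ± 0.74 for Bcl2l1, 0.17 ± 0.56 for Bid and -1.19 ± 1.44 for Bcl2l11, each with adjusted p = 1.0 (edgeR).

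Between lung and blood of the same strain and time, no member was called either. The background was 0.0% in WT at 0h and αD KO at 0h, 0.0442% of 13590 genes in WT at 12 hours and 0.0548% of 14592 genes in αD KO at 12 hours (406, 553, 2454 and 3240 genes at an unadjusted p under 0.05 in this order, edgeR). In αD KO at 12 hours the genes called in all were 1232 by DESeq2, 1293 without a filter and 1441 with the files of sample 1 summed, with no member among them in any of these fits, and 1691 without library 1b of αD KO lung, with 1 member among them. With the library number as a block, the genes called at 12 hours rose from 6 to 65 in WT and from 8 to 21 in αD KO, with no member among them. In WT at 12 hours Mcl1 was at 602, 1427 and 485 CPM in blood and at 2781, 1955 and 2249 CPM in lung, without overlap, and the log2 fold change of 1.47 ± 0.49 did not pass the test (adjusted p = 0.194, edgeR). Bcl2a1b differed by 2.60 ± 0.67 and Bcl2l11 by 2.69 ± 0.87 in this comparison (adjusted p = 0.143 and 0.189, edgeR). DESeq2 called 5 members higher in lung there, namely Bcl2l11, Bcl2l1, Mcl1, Bcl2a1a and Bcl2a1b, with adjusted p from 0.00387 to 0.0495, and 869 genes in all, 685 of them higher (1.76% of the 49315 genes entered). In αD KO at 12 hours Bcl2l1 differed by -0.87 ± 0.48 and Bid by 1.14 ± 0.52 between lung and blood, and by -0.48 ± 0.53 and -0.64 ± 0.54 without the libraries that stood apart, so that the sign for Bid turned. Lung structural markers (7 genes) summed to 65.5 to 399.6 CPM in WT lung and to 14.4 to 16.3 CPM in WT blood at 12 hours, and to 46.5 to 176 and 5.04 to 21.003 CPM in αD KO, where Sftpc was at 0 in the 3 blood libraries. Their median log2 fold change was 3.53 in WT with none called, and 4.76 in αD KO with 1 of 7 called (Scgb1a1). Their part in the differences between lung and blood was not tested.

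The ratio of survival to death genes was formed in each library as the summed CPM per kb of the 6 survival members over that of the 4 death members. It is a ratio of RNA, not of protein. At 0h it was 3.71, 8.23 and 4.44 in WT blood (libraries 1a, 1b and 2), 4.75, 7.405 and 8.21 in WT lung, 6.02, 11.4 and 2.99 in αD KO blood, and 5.91, 12.1 and 6.35 in αD KO lung. At 12 hours it was 5.47, 10.9 and 3.54 in WT blood, 7.69, 17.6 and 6.88 in WT lung, 6.02, 26.2 and 3.51 in αD KO blood, and 9.72, 18.8 and 8.96 in αD KO lung. Survival RNA with Mcl1 in it thus exceeded death RNA in all 24 libraries, and library 1b was the highest of its group in 7 of 8 groups. Mcl1 alone was 63.7% to 96.6% of the survival RNA. In WT blood at 0h, Bid averaged 63.2 CPM per kb. There Bcl2a1a, Bcl2a1b, Bcl2a1d, Bcl2l1 and Bcl2 averaged 11.8, 12.8, 4.89, 6.15 and 0.338, so the excess in that group rested on Mcl1.

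The mean log2 ratio was higher at 12 hours than at 0h by 0.22 in WT blood, 0.565 in WT lung, 0.48 in αD KO blood and 0.62 in αD KO lung, where the pooled SD between libraries was 0.72, 0.60, 1.26 and 0.58. Without the libraries that stood apart, the difference in αD KO lung was 1.15. That leaves only library 1b at 12 hours, and library 1b had the highest ratio in most groups. Between the 1b libraries of αD KO lung the difference was 0.63. The ranges overlapped in all 12 comparisons of groups. The labels state no pairing, but in 5 comparisons the deviations of same-numbered libraries correlated over 0.1 for every number. Among these, the log2 ratio was higher at 12 hours in αD KO lung by 0.72, 0.63 and 0.50 (3 of 3 numbers). Numbers 1a and 2 there involve the libraries that stood apart. The log2 ratio was also higher in lung than in blood in WT at 12 hours, by 0.49, 0.69 and 0.96 (3 of 3). It was higher in 2 of 3 numbers with time in WT blood, between the strains in 0h blood and in lung against blood in αD KO at 12 hours. Outside these 5 comparisons, it was higher in 3 of 3 numbers with time in αD KO blood (0.001, 1.20 and 0.23). The same held in αD KO over WT lung at 12 hours (0.34, 0.09 and 0.38), and in the rest it was higher in 2 of 3. This pairing of the ratio was chosen after seeing the data, and the ratio was not tested. The ratio was largely that of Mcl1, which made up 63.7% to 96.6% of the survival sum. Without Mcl1, the difference with CLP was 1.502 in WT blood, 1.23 in WT lung, 1.39 in αD KO blood and -0.04 in αD KO lung. The same omission moved αD KO against WT lung at 12 hours from 0.27 to -0.70 and lung against blood in αD KO at 12 hours from 0.52 to -0.10. Without the libraries that stood apart, and with Mcl1, these same differences were 0.94 and 1.19, with library 1b alone in αD KO lung at 12 hours. Between 1b libraries only, they were 0.09 and -0.48. Omitting Mcl1 moved lung against blood at 0h from 0.36 to 1.065 in WT and from 0.38 to 1.33 in αD KO. Averaging log2 values instead, so that each member counts equally, gave 0.48 in WT blood, 0.67 in WT lung, -0.025 in αD KO blood and 0.13 in αD KO lung, and the WT lung groups were then apart. Lung and blood of WT were then apart too, by 0.58 at 0h and 0.775 at 12 hours, while the other 9 comparisons overlapped.

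The death sum was lower at 12 hours than at 0h in blood without overlap, while the survival sums of blood overlapped. In WT blood the survival sum was 452 ± 42.5 CPM per kb at 0h and 301 ± 134 at 12 hours (SD, n = 3 libraries), and the death sum 91.4 ± 30.6 and 47.8 ± 7.69. In αD KO blood the survival sum was 494 ± 225 and 491 ± 467 CPM per kb, and the death sum 78.2 ± 13.9 and 44.3 ± 4.51. In WT lung the survival sum was 541 ± 151 and 903 ± 253 CPM per kb, and the death sum 79.7 ± 4.33 and 107 ± 61.8, both with overlap. In αD KO lung, with all libraries, the survival sum was 567 ± 122 and 790 ± 56.5, without overlap. The death sum there was 74.3 ± 19.2 and 70.4 ± 25.5, with overlap. Bid made up 57.1% to 74.4% of the death sum in the 6 blood libraries at 0h and 24.4% to 56.5% at 12 hours. At 12 hours it was still the largest term in 3 of the 6, at 54.7% against 33.7% for Bax in library 1b of WT, 56.5% against 28.2% in library 1b of αD KO and 42.6% against 42.4% in library 2 of αD KO, and Bax was the largest in the other 3. In libraries 1a and 2 of WT lung at 12 hours, Bcl2l11 made up 60.1% and 48.1% of the death sum and Bid 6.82% and 10.6%, while in library 1b the shares were 12.3% and 58.3%.

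**Figure D4:**
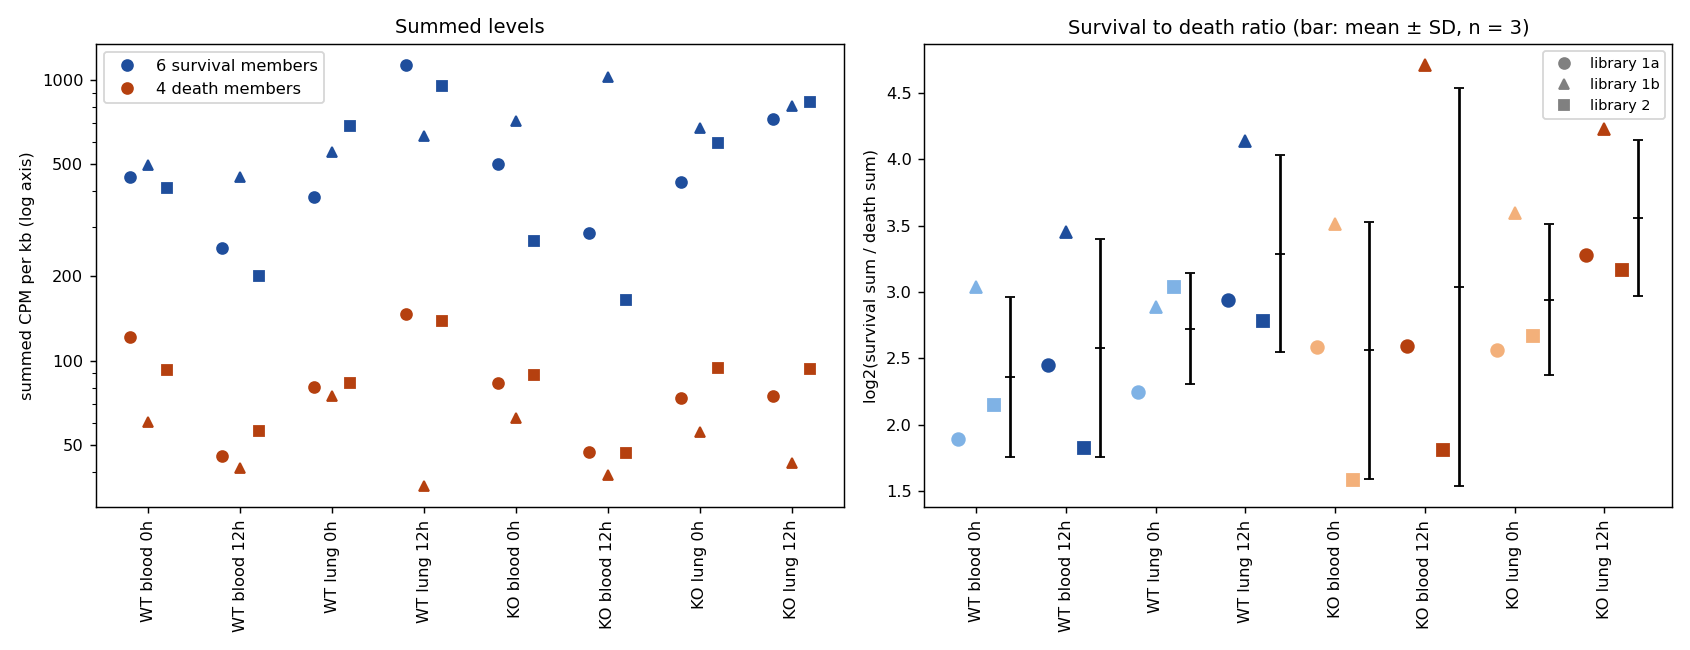
Left, summed CPM per kb (vertical, log axis) of the survival members (blue) and death members (red) in each library by group. Right, log2 of their ratio in each library with the group mean ± SD (n = 3 libraries), where the groups overlap throughout and library 1b is high.

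Other BCL-2 family genes were taken from a list of 16, of which 9 to 11 passed the filter on low counts in the 3 comparisons given here. With CLP, 3 of 11 tested were called lower and none higher in WT blood (5.75% of all genes lower), 2 of 10 lower in αD KO blood (4.99%), and 1 lower and 1 higher of 9 in WT lung (3.78% and 5.24%). Bnip3, a gene known from mitophagy and hypoxia, was called lower in all 3, with log2 fold changes of -2.41 ± 0.59, -2.48 ± 0.32 and -2.39 ± 0.39 in WT blood, αD KO blood and WT lung. Pmaip1, whose product NOXA binds MCL1, had log2 fold changes of -2.55 ± 0.40 in WT blood and -2.49 ± 0.49 in αD KO blood. Bbc3, which encodes the BH3-only protein PUMA, fell by 1.68 ± 0.30 in WT blood, from a mean of 16.6 to 5.39 CPM. Bcl2l15 rose in WT lung from 0.52 to 7.31 CPM. The median log2 fold change of the list was -0.17 in WT blood, 0.01 in αD KO blood and 0.41 in WT lung, beside -0.15, -0.14 and 0.03 over all genes tested.

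Of 13 genes of the caspase pathway below the mitochondria, Casp6 (an executioner caspase) was called higher in all 3 comparisons. Its mean went from 8.13 to 46.1 CPM in WT blood, from 9.005 to 76.3 CPM in αD KO blood and from 5.84 to 39.9 CPM in WT lung. Birc3, an inhibitor of apoptosis, rose in αD KO blood by 1.71 ± 0.32 on the log2 scale. Htra2, whose product is released from mitochondria, had log2 fold changes of -1.76 ± 0.40 in αD KO blood and -2.24 ± 0.40 in WT lung. In all, 1 of 13 tested rose in WT blood, 2 rose and 1 fell of 12 in αD KO blood, and 1 rose and 1 fell of 12 in WT lung. The shares of all genes called were those given for the members, 7.75% higher in WT blood, 3.75% higher and 4.99% lower in αD KO blood, and 5.24% higher and 3.78% lower in WT lung, and the counts of the lists that follow are to be read against them.

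Of 7 genes that link death receptors to Bid, Cflar, which encodes the caspase-8 inhibitor c-FLIP, rose by 1.75 ± 0.42 in WT blood and by 1.40 ± 0.27 in αD KO blood. Casp8, whose product cleaves BID, rose by 1.67 ± 0.41 in WT blood. No gene of this list was called in WT lung, where its median log2 fold change was 1.32. Of the 8 genes of MCL1 protein turnover, 7 were tested in WT blood, 8 in αD KO blood and 7 in WT lung, and none was called, with medians of 0.14, 0.01 and 0.41 in WT blood, αD KO blood and WT lung.

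Among 15 upstream receptors, kinases and transcription factors, Csf3r, the receptor of the survival factor G-CSF, was called lower in all 3. Its mean went from 9012 to 1562 CPM in WT blood, from 7319.7 to 1473 CPM in αD KO blood and from 9778 to 2821 CPM in WT lung. Hif1a rose by 1.57 ± 0.33 in WT blood and by 1.92 ± 0.37 in αD KO blood, and Csf2rb, a receptor subunit for GM-CSF, by 1.42 ± 0.35 in WT blood. Pim2, a survival kinase, rose by 2.94 ± 0.65 in αD KO blood and by 4.14 ± 0.79 in WT lung. In the other comparisons between groups no gene of these lists was called.

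**Figure D5:**
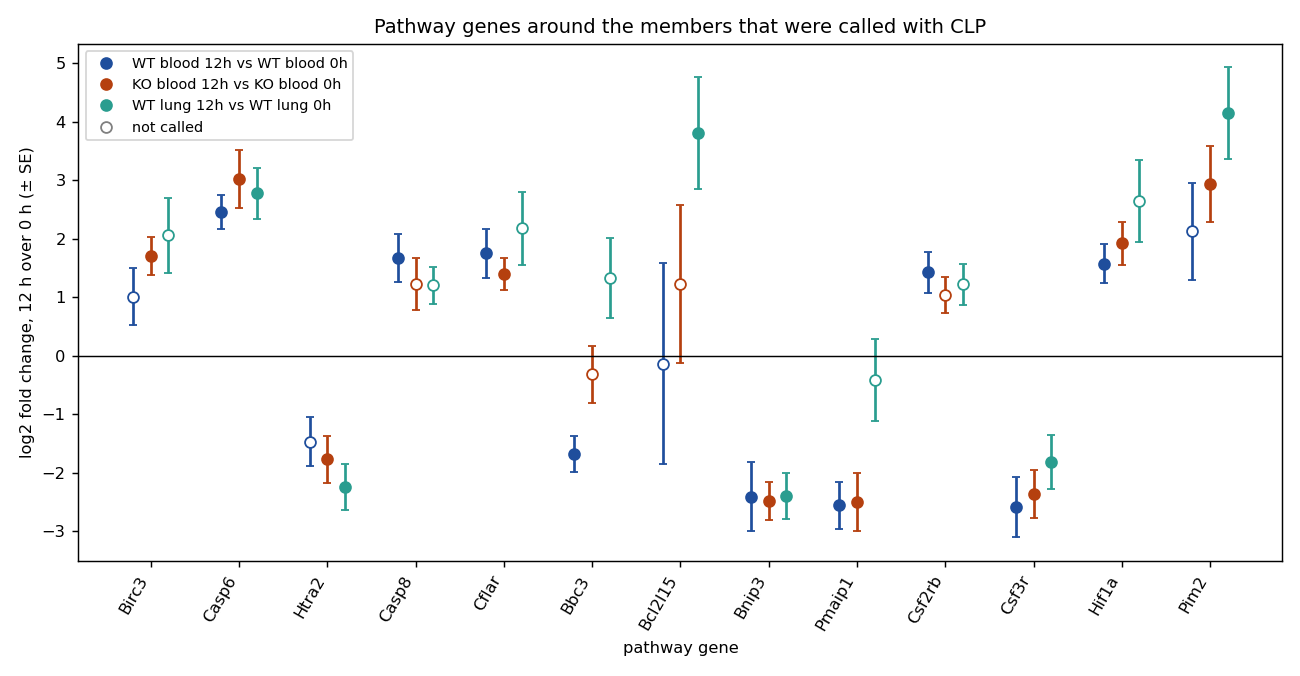
Log2 fold change with its SE (vertical) of the pathway genes that were called with CLP in WT blood, αD KO blood or WT lung (horizontal), filled where called. Casp6 rises and Bnip3 and Csf3r fall in all 3 comparisons.

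Markers of other cells moved with CLP beside these changes. Immature neutrophil markers (8 genes of granules such as Ltf and Ngp) summed to 53.3 to 6011 CPM in WT blood at 0h and to 43926 to 106533 CPM at 12 hours. In WT lung they summed to 91.6 to 1092 CPM and to 18025 to 42922.5 CPM, and in αD KO blood to 149.6 to 16066.5 CPM and to 19328 to 77709 CPM. Of those tested, 3 of 5 were called higher in WT lung, and none of 6 in WT blood or of 5 in αD KO blood. Monocyte and macrophage markers (8 genes) fell from sums of 509 to 1074 CPM to 110.4 to 257 CPM in WT blood, with 2 of 6 tested called lower, from 601 to 935 to 239 to 259.6 CPM in WT lung (2 of 5), and from 636 to 1301 to 113 to 173 CPM in αD KO blood (3 of 7). B cell markers (6 genes) went from 331 to 1185 CPM to 43.9 to 198 CPM in WT blood (1 of 6 called lower), from 448 to 724 to 29.9 to 77.9 CPM in WT lung (3 of 6), and from 355 to 1226 to 37.2 to 115 CPM in αD KO blood (2 of 6). Neutrophil markers went from 37203 to 47457.5 CPM to 127008 to 191207 CPM in WT blood (6 of 9 called higher, 1 lower), from 42316 to 51529 to 69027 to 176908 CPM in WT lung (2 higher, 1 lower), and from 40065 to 58519.9 to 105618 to 154211 CPM in αD KO blood (4 higher, 1 lower). Of 5 platelet markers, 2 were called lower in WT blood and 1 in αD KO blood, and of 5 T and NK cell markers tested, 2 were lower in αD KO blood. Of 4 lung structural markers tested, 1 was lower in WT blood. The sum of all 7 was 19.6, 24.4 and 215.7 CPM in libraries 1a, 1b and 2 of WT blood at 0h. In WT lung at 0h it was 41.3 to 132.7 CPM. Eosinophil markers (4 genes) went from 35.9 to 65.4 CPM to 5.17 to 6.99 CPM in WT blood and from 62.1 to 119.05 to 2.57 to 18.9 CPM in WT lung. In αD KO blood they went from 35.5 to 59.3 to 1.41 to 3.78 CPM, and 2 of 2 tested were called lower in each of the 3 comparisons, with Prg2 at 0 in WT blood at 12 hours, in WT lung at 0h and in αD KO blood at 12 hours. In αD KO lung, library 2 at 0h held 43866 CPM of immature neutrophil and 49.6 CPM of B cell markers, against 141 and 14895 CPM and 306 and 431 CPM in the other 0h libraries. Their part in the changes of Bcl2l1 and Bid was not tested, and in sorted bulk samples a change in the make-up of the cells and a change in RNA per cell cannot be told apart.

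The genes whose log2(CPM + 1) followed a member most closely over the 24 libraries, among 6606 genes with a mean of at least 10 CPM, are given as a description, since the libraries share groups and time. Bid was followed by Tmem38a, Mcfd2 and Slc40a1 (r = 0.971, 0.965 and 0.963), and Bcl2l1 by Fam214b, Esd and Mrpl52 (r = 0.967, 0.965 and 0.96). Bcl2l11 was followed by Gm26809, Ccl3 and Cd274 (r = 0.955, 0.943 and 0.933), and Mcl1 by Pcbp1, Csnk1g2 and Ccdc71l (r = 0.941, 0.94 and 0.935). Bcl2a1a was followed by Bcl2a1b, Arl5b and Gm26809 (r = 0.947, 0.946 and 0.945), Bcl2a1b by Bcl2a1a, Nr4a1 and Arl5b (r = 0.947, 0.92 and 0.919), and Bcl2a1d by Bcl2a1b, Bcl2a1a and Plek (r = 0.921, 0.859 and 0.846). For Bax they were Eif4a1, Ube2s and Slfn2 (r = 0.92, 0.905 and 0.903), for Bak1 Capns1, Rnf8 and 2310015A10Rik (r = 0.896, 0.834 and 0.834), and for Bcl2 Rpl32, Adgre4 and Lrp1 (r = 0.756, 0.671 and 0.667). Bcl2l1 and Bid themselves had r = -0.843.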

How the data were processed

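Neutrophil RNA-seq from 16 samples in 24 files was used. Per the labels and methods, the authors trimmed reads with Trimmomatic 0.36, aligned them with STAR 2.5.2b to GRCm38, and deposited unnormalized counts of uniquely mapped reads in exons per gene. The counting tool and its strand setting are not given in the sources used here. The 2 files of sample 1 differed beyond sampling noise and were kept as separate libraries. The study speaks of triplicates, but the labels do not say whether the files came from separate animals. If they did not, p-values measure only the spread between libraries, which may be technical.

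Counts were tested in R 4.3.3 with the quasi-likelihood F test of edgeR 4.0.16 (TMM, filterByExpr) on the libraries of the compared groups, with Benjamini-Hochberg adjustment over all genes tested. A gene was called when its adjusted p was below 0.05 and its log2 fold change beyond 1 in either direction (interactions: adjusted p alone). The study's tool, DESeq2 (1.42.0), was an alternative, beside RLE factors, no filter, all 8 groups in a single fit, summed files of sample 1, a block on library number and leaving out each library. Both tools were tested on simulated counts. Tables and plots were made in Python 3.11.15.

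The text names all 10 members, Itgad, at most 4 called genes of each pathway list by smallest adjusted p, and the 3 genes most correlated with each member. One gene of the caspase list is not reported here. Members and lists were chosen with earlier results of these data known. The labels state no pairing. Deviations of same-numbered libraries correlated over 0.1 for every number in 5 of the 12 comparisons, namely αD KO against WT blood at 0h, time in WT blood and in αD KO lung, and lung against blood at 12 hours in both strains.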

Additional observations from a re-analysis of the deposited data

How the results depend on the processing

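Of 1489 recalculated log2 fold changes of members, 1283 kept their direction and side of the threshold, 35 lost and 25 gained a call, 146 uncalled values changed sign, and 0 called values reversed. Of 180 recalculated counts of called members, 153 stayed within 1.5 times the original. The number called in WT blood with time, 2, was 0 without a filter (944 of 41941 genes called) and 0 with all 8 groups in the fit (1118 of 27145). It was 0 to 2 leaving out a library. In WT lung with time it was 1 with all 8 groups (447 of 27145 genes called) and 0 to 6 leaving out a library. In αD KO blood with time it was 0 with all 8 groups (64 of 27145 genes called). There it was 1 with the files of sample 1 summed (635 of 16521) and 0 to 2 leaving out a library. From 0 called members, lung against blood in WT at 12 hours went to 3 without a filter, 5 by DESeq2, 3 with summed files and 0 to 5 leaving out a library, while the genes called in all went from 6 to 650, 869, 748 and, without library 1b of WT lung 12 hours, 2916. Leaving out library 1b of WT lung 12 hours gave 1 for αD KO against WT lung at 12 hours (Bcl2l11), with 209 of 18849 genes called. Leaving out library 1b of αD KO lung 12 hours gave 1 for lung against blood in αD KO at 12 hours (Bid), with 1691 of 15144 genes called. Leaving out any other library gave 0 in both. DESeq2 gave 1 for genotype by time in lung, with 332 genes called. The library number as a replicate block left the number of called members at 2 in these 3 time comparisons and at 0 in all others, and over all genes moved αD KO against WT blood at 0h from 2 to 0. Without Mcl1, the log2 ratio difference with time was 1.502 in WT blood, 1.23 in WT lung and -0.04 in αD KO lung, where it reversed from 0.62; Mcl1 is the largest term of the sum. For the other changes the cause was not tested. Bak1 and Bcl2, with as few as 7 and 11 reads in a library, had the lowest counts of the members.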

Other observations

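Library 1b differed from libraries 1a and 2 in several members. Bax was between 14.1 and 26.5 CPM in the 8 libraries numbered 1b and between 31.2 and 87.5 CPM in the other 16, and was lowest in 1b in 8 of 8 groups. Bcl2a1b was lowest in 1b in 7 of 8 groups, Bcl2l1, Bcl2a1a and Bcl2a1d in 6 of 8, and Mcl1 was highest in 1b in 5 of 8. Bid was lowest in 1b in 3 groups and highest in 3. The libraries numbered 1b had counts for 29162 to 38844 genes, against 17132 to 32666 in the others.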
